A study of Mus musculus with 4 samples.

Results

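The endothelial cells described here line the blood and lymphatic vessels that were dissected together with mouse molar tooth organs. They were chosen by their counts of Pecam1, Cdh5 and Kdr, which encode an endothelial adhesion molecule, the cadherin of endothelial junctions and a receptor of vascular endothelial growth factor (VEGF). A cell barcode was kept when it held at least 1000 unique molecular identifiers (UMIs, each marking 1 captured RNA molecule), of which less than 10% were mitochondrial. A kept barcode was an endothelial cell when Pecam1, Cdh5 and Kdr together had at least 3 UMIs from at least 2 of the 3 genes. It also had to hold no UMI of the leukocyte gene Ptprc or the epithelial gene Epcam, and at most 15 UMIs of the collagen genes Col1a1, Col1a2 and Col3a1. This gave 1028 endothelial cells among 42164 kept barcodes, out of 56940 deposited.

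The wild-type C57BL/6J mice (WTB6 in the labels) carried no transgene and received no treatment. Maxillary and mandibular molars were taken from embryos at E15.5 (written as E15 in the labels) and from newborn pups at P1 (P0/P1 in the study's methods), and 6 tooth organs were pooled and dissociated into 1 library for each stage and jaw. Each of the 4 groups is therefore 1 library, no test between groups was run, and every interval given here is an exact 95% interval that covers counting error only. The E15.5 maxillary library held 300 endothelial cells, 3.10% of its kept barcodes (2.76 to 3.46%), and the E15.5 mandibular library 223, or 3.39% (2.96 to 3.85%). The P1 maxillary library held 310, or 1.88% (1.68 to 2.10%), and the P1 mandibular library 195, or 2.07% (1.79 to 2.38%). A share of a dissociated suspension depends on how much surrounding tissue was dissected and which cells survived. The median endothelial cell had 10081.5 and 10021 UMIs at E15.5 in the maxillary and mandibular libraries, and 7024 and 7871 at P1. Summed over endothelial cells, the libraries held 3985088 and 3216939 UMIs at E15.5 and 3473911 and 1925145 at P1, in the same order. All levels are UMIs of a gene per 1000000 UMIs of the endothelial cells of a library (CPM), and a sum of this kind cannot tell fewer expressing cells from less RNA per cell.

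Vessels grow into the dental papilla and around the enamel organ as a molar passes from the cap and bell stages to the deposition of dentin and enamel. Endothelial cells at the front of a sprout, the tip cells, respond to VEGF, while Notch signalling holds their neighbours back, and the new vessels later become arteries, capillaries and veins. Lymphatic vessels are a separate system, specified by the transcription factor Prox1, that drains fluid and carries leukocytes.

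The P1 libraries were not independent of each other, and this bears on most comparisons of the stages. They had 7131 barcodes in common, against 28 to 70 for the other pairs of libraries. Shared barcodes were counted in the P1 maxillary library only, where 126 of the 310 endothelial cells had one and the remaining 184 had a barcode of their own. The 126 cells had a median of 14914 UMIs in the maxillary library and 3511 in the mandibular one, with a median log2 ratio of 2.09. Over 2877 genes the summed profiles of the 2 copies had r = 0.983, and 0 genes were 2-fold apart. The cells with their own barcode were shallower, with a median of 3729 UMIs.

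The 2 sets of P1 maxillary cells differed in the tissue around them. Amelx, which encodes the main protein of the enamel matrix, had 1230 CPM in the other barcodes that were shared and 15.97 CPM in the maxillary library's own, against 4045 CPM in the P1 mandibular library and 1.81 and 8.45 CPM in the E15.5 maxillary and mandibular libraries. Dspp, the precursor of the dentin matrix proteins, followed the same order, with 113, 2.34, 250, 0.0096 and 0.196 CPM. The barcodes that only the P1 maxillary library held were thus low in genes of enamel and dentin deposition, as were the E15.5 libraries. These other barcodes were also shallow, with a median of 2577 UMIs against 12218 UMIs in the shared ones. The mix of cell types in them was not compared, and whether the P1 label holds for them was not tested. Among the endothelial cells, 7 genes of the 2877 were 2-fold apart between the E15.5 maxillary cells and the P1 maxillary cells with their own barcode, and 41 between the E15.5 maxillary cells and those with a shared barcode. Between the shared cells and the P1 mandibular cells 20 genes were 2-fold apart, and between the shared and the own-barcode cells of the maxillary library 37. Which P1 library the shared cells came from, and what the own-barcode cells are, could not be settled from the files, so that counting the shared cells as maxillary is a convention in every value below. The genes and lists on which the comparisons turn are therefore given for the 310 cells and for both sets of cells.

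The endothelial identity of the cells was plain in genes that the rule did not use. A list of 25 such genes summed to 9024 CPM in the E15.5 maxillary cells, 8932 CPM in the E15.5 mandibular cells, 9770 CPM in the P1 maxillary cells and 10494 CPM in the P1 mandibular cells. In the other kept barcodes the same genes summed to between 207 and 339 CPM. The genes that the rule used had 749 to 1006 CPM (Pecam1), 746 to 948 CPM (Cdh5) and 558 to 663 CPM (Kdr). Their levels do not test the identity of the cells, since the rule chose the cells by these counts. Of 3046 genes with at least 50 CPM in the endothelial cells of all libraries, 127 (4.17%) were at least 8-fold above the other barcodes in each of the 4 libraries. These comprised 22 of the 24 listed endothelial genes with that level. They describe the cells and do not test them, since the same counts chose the cells.

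The genes that stood furthest above the other barcodes were guidance and adhesion receptors, transcription factors and surface proteins of endothelium. Robo4, a roundabout receptor that stabilizes vessels, had 82.1, 129, 94.4 and 112 CPM in the E15.5 maxillary, E15.5 mandibular, P1 maxillary and P1 mandibular cells, and between 0.730 and 1.52 CPM in the other barcodes. Btnl9, of the butyrophilin family, had 54.0, 70.9, 61.3 and 114 CPM in the same order, and Dipk2b had 81.1, 72.4, 92.4 and 112 CPM. Adgrl4, an adhesion G protein-coupled receptor of endothelium, had 162, 228, 196 and 362 CPM. Tie1, the orphan receptor of the angiopoietin system, had 190, 197, 208 and 258 CPM against at most 2.90 CPM in the other barcodes. The 4 libraries were within 2-fold of each other for Robo4, Dipk2b and Tie1, while the P1 mandibular cells were more than 2-fold above the E15.5 maxillary cells for Btnl9 and Adgrl4. The transcription factors Sox7, at 89.3 to 103 CPM, and Bcl6b, at 67.9 to 92.5 CPM, varied little. The apelin receptor Aplnr had 295 to 327 CPM, Myct1 170 to 182 CPM and the prion-like gene Prnd 174 to 211 CPM. The sialomucins Emcn and Podxl had 789 to 974 CPM and 116 to 200 CPM, the phosphatase Ptprb 362 to 641 CPM and Ushbp1 99.9 to 137 CPM. Icam2, an adhesion molecule for leukocytes, was the one of these 15 genes at a clearly lower level in both P1 libraries, with 421 and 394 CPM at E15.5 and, at P1, 239 and 232 CPM. Of the 127 genes, 92 were also at least 8-fold higher in the endothelial cells than in barcodes with immune and with epithelial markers.

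**Figure D1:**
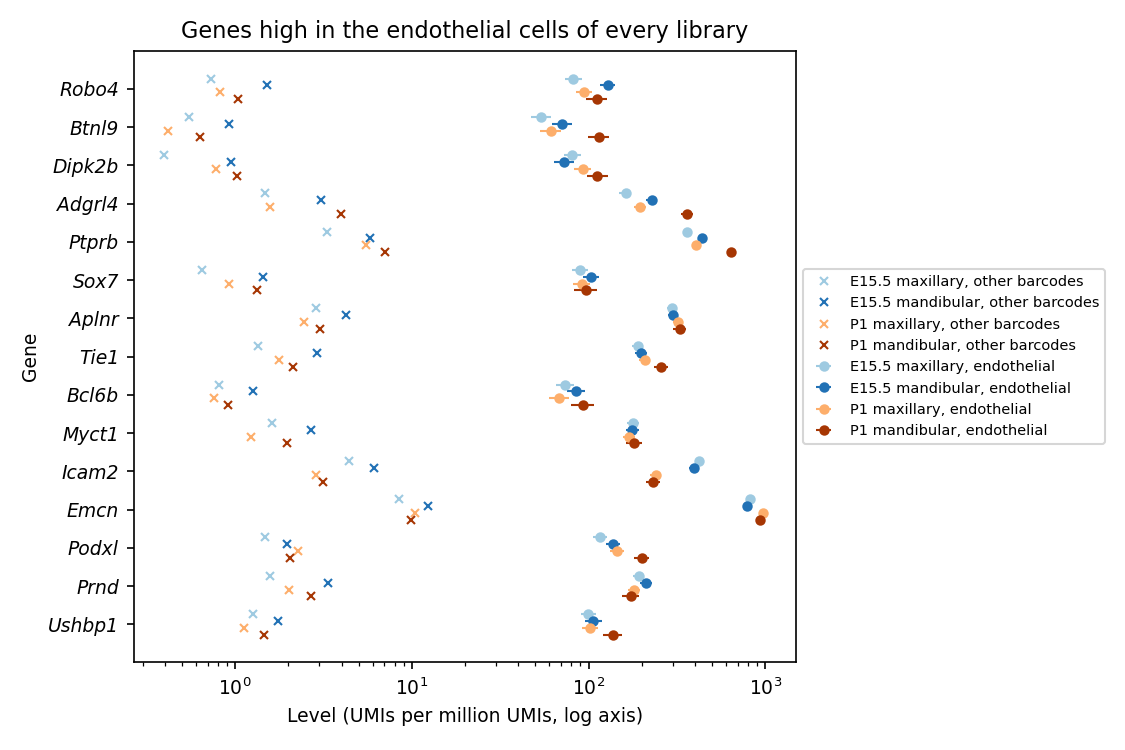
Levels, in UMIs per 1000000 UMIs on a log axis, of the 15 genes ranked furthest above the other barcodes, with 1 point per library and 95% counting intervals for the endothelial cells and 1 cross per library for the other kept barcodes. Robo4, at the top, lies between 82.1 and 129 CPM in endothelial cells and between 0.730 and 1.52 CPM in the other barcodes.

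Endothelial genes are known targets of ETS transcription factors, whose sites contain the core GGAA. The ETS genes themselves were well expressed, with Erg at 159 to 202 CPM, Fli1 at 530 to 700 CPM and Ets1 at 392 to 568 CPM. The 150 bases before the annotated start of a gene were therefore read from RefSeq (GRCm38.p6, the build of the files) and searched on both strands for the letters AGGAAG or CGGAAG. Of the 127 genes, 82 matched a promoter. As the rest could not be searched, the share of the 127 with a motif is not known and is not compared with other genes. Of all 27025 promoters of this length, 28.0% held one of the motifs. The windows of the first 5 genes of the ranking whose promoter could be shown are given from 5′ to 3′ on the strand of the gene. Robo4, Btnl9, Dipk2b and Adgrl4 lead the ranking, and Tie1 has rank 8. Capitals mark each match, read as CTTCCT or CTTCCG where it lies on the other strand.
Robo4 (chr9:37401822-37401971, plus strand): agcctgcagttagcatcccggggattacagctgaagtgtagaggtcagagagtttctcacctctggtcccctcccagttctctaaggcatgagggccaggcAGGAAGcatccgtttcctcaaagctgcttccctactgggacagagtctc
Btnl9 (chr11:49187090-49187239, minus strand): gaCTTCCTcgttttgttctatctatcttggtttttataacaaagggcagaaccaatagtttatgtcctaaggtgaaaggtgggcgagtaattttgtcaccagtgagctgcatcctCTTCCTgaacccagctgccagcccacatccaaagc
Dipk2b (chrX:18461398-18461547, minus strand): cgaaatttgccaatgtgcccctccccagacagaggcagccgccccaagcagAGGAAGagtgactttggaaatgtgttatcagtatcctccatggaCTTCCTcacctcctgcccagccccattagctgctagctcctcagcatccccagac
Adgrl4 (chr3:151437732-151437881, plus strand): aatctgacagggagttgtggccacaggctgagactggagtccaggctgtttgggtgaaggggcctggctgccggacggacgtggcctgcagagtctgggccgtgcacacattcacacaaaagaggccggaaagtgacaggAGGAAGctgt
Tie1 (chr4:118489850-118489999, minus strand): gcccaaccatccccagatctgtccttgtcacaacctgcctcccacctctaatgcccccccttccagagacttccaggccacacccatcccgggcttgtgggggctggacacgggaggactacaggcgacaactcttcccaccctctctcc
Robo4 and Adgrl4 had 1 match each and Btnl9 and Dipk2b 2 each. The Tie1 window had 0 matches to these letters, which says nothing of binding by any factor there.

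The cells carried the receptors of the main vascular signalling pathways at levels that were mostly within 2-fold between libraries. Of the VEGF receptors and co-receptors, Flt1, which binds VEGF as a decoy, had 863, 916, 1184 and 1323 CPM in the E15.5 maxillary, E15.5 mandibular, P1 maxillary and P1 mandibular cells. The neuropilin Nrp1 had 493 to 756 CPM and Nrp2 297 to 341 CPM, the semaphorin receptor Plxnd1 399 to 500 CPM, and the lymphatic receptor Flt4 65.6 to 110 CPM. Its ligand Vegfc was also detected, at 79.7 to 131 CPM, against 9.55 to 32.2 CPM in the other barcodes. Of the angiopoietin receptors, Tek had 260, 270, 295 and 364 CPM. Of the Notch pathway, the receptor Notch1 had 134 to 154 CPM and Notch4 44.9 to 63.4 CPM, the ligand Dll4 54.1 to 85.2 CPM, and the targets Hes1 and Nrarp 165 to 309 CPM and 71.7 to 87.5 CPM. Of the BMP9 and ALK1 pathway, the co-receptor Eng had 325 to 394 CPM, the receptor Acvrl1 (ALK1) 70.6 to 98.5 CPM, and the target Id3 375 to 465 CPM. The Wnt pathway, whose ligands and inhibitors the study followed in tooth tissue, was represented by the receptor Fzd4 at 91.8 to 101 CPM, its co-receptors Tspan12 at 80.6 to 130 CPM and Lrp5 at 46.7 to 94.0 CPM, and Fzd6 at 45.7 to 88.8 CPM. The basement membrane collagens Col4a1 and Col4a2 had 1985 to 2512 CPM and 1087 to 1653 CPM.

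None of the pathway genes with enough level to be compared was 2-fold different between the stages in both jaws. The count was 0 of the 6 genes compared of 11 on the VEGF list, 0 of 3 of 9 on the Tie list, 0 of 5 of 17 on the Notch list, 0 of 8 of 17 on the ALK1 list, 0 of 4 of 61 on the Wnt list and 0 of 13 of 18 on the basement membrane list. It was also 0 of 25 compared on the list of endothelial genes, with medians of 0.13 and 0.25 log2 in the maxillary and mandibular pairs, and 0 of 18 compared of 28 endothelial transcription factors. Over all 2720 genes compared between the stages, 0.551% were 2-fold higher at P1 in both jaws and 0.331% lower, so that a count of 0 in lists of this size does not set them apart. At 1.5-fold in both jaws, Bmpr2, a BMP receptor, was higher at P1, with 192, 210, 291 and 324 CPM, as was Fzd6, with 45.7, 56.3, 73.4 and 88.8 CPM. Mmrn2, an endothelial matrix protein, was higher at P1 and Icam2 lower by this measure. The transcription factor genes Tcf15 and Meox2 were also lower at P1 by this measure. In the own-barcode cells Tcf15 reached 1.5-fold, with a log2 ratio of -0.63, while the ratio was 0.51 for Bmpr2, 0.28 for Fzd6, 0.10 for Mmrn2, -0.44 for Icam2 and -0.57 for Meox2. Flt1 and Hes1 were higher in the P1 cells with a shared barcode than in those with their own, as the plot of signalling genes shows.

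**Figure D2:**
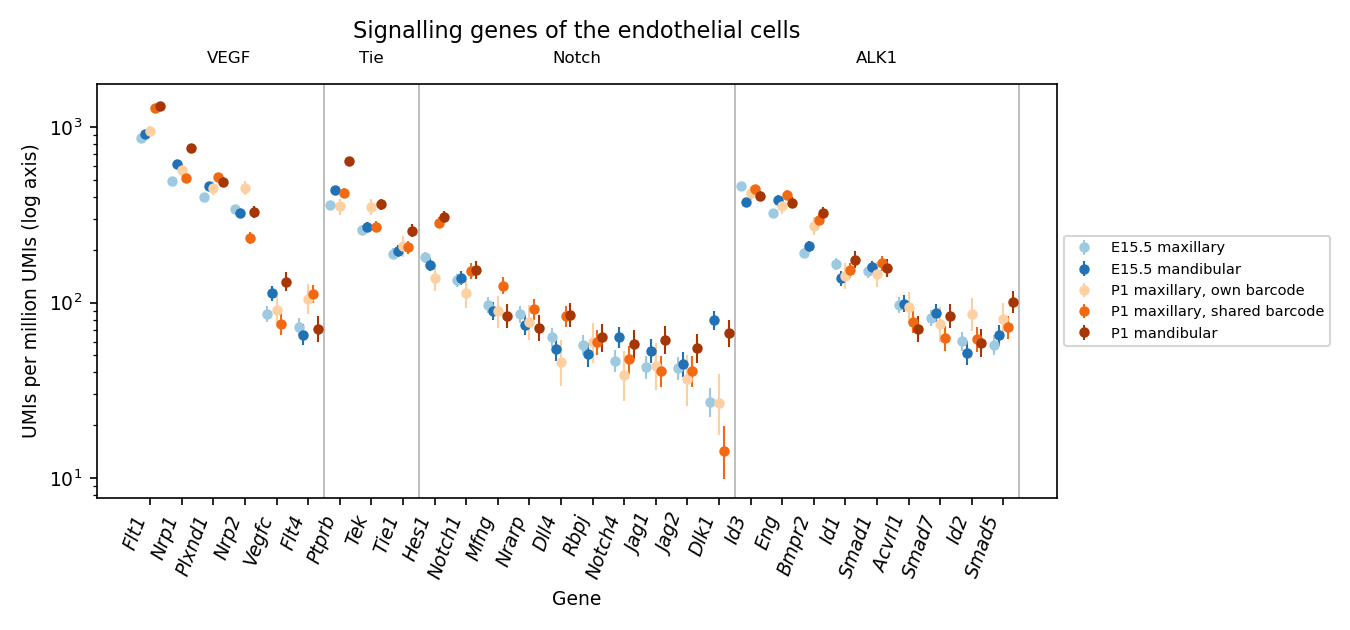
Levels of 28 signalling genes in UMIs per 1000000 UMIs on a log axis, grouped by pathway, with 1 point per library or set of P1 maxillary cells and 95% counting intervals. Most genes keep the same order of magnitude in every set, with Flt1 at 863 CPM in the E15.5 maxillary and 1323 CPM in the P1 mandibular cells and Notch1 at 134 and 154 CPM.

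Some genes that mark the barrier of brain vessels were at 0 UMIs in all libraries but the P1 mandibular one, while other barrier genes were expressed. The whole list of 17 barrier genes summed to 1010, 812, 1045 and 1166 CPM in the E15.5 maxillary, E15.5 mandibular, P1 maxillary and P1 mandibular cells. In the other barcodes it summed to 881, 1536, 361 and 922 CPM. Mfsd2a, Slc38a5 and Foxq1 had 0 UMIs in the endothelial cells of 3 libraries, and 0.519, 9.87 and 2.08 CPM in the P1 mandibular cells. The drug efflux pump Abcb1a was present but low, with 18.3, 15.9, 33.4 and 29.6 CPM in the E15.5 maxillary, E15.5 mandibular, P1 maxillary and P1 mandibular cells, and 33.3 and 33.7 CPM in the P1 maxillary cells with a shared and with their own barcode. The general tight junction gene Cldn5 had 501, 446, 466 and 651 CPM, with 509 and 360 CPM in the P1 maxillary sets. The fenestral diaphragm gene Plvap, which brain capillaries with a barrier lack, had 463, 319, 579 and 455 CPM, with 641 and 427 CPM in the sets. Both Cldn5 and Plvap were thus present in every library.

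Cells with genes of each vessel class were found at both stages. A cell was assigned to a class when at least 3 UMIs fell on at least 2 genes of a short list, first lymphatic, then arterial, then venous, and tip cell and proliferation genes were scored separately and could overlap the classes. Lymphatic genes (Prox1, Lyve1, Ccl21a, Mmrn1 and Reln) were found in 26 of 300 E15.5 maxillary cells, 7 of 223 E15.5 mandibular cells, 22 of 310 P1 maxillary cells and 6 of 195 P1 mandibular cells. These are shares of 8.67%, 3.14%, 7.10% and 3.08%, against 0.501%, 1.48%, 0.173% and 0.564% of the other kept barcodes. Arterial genes (Gja4, Gja5, Sox17, Bmx, Sema3g and Hey1) were found in 18%, 19.3%, 15.2% and 17.9% of the cells. Venous genes (Nr2f2, Vwf, Selp and Ackr1) were found in 11%, 8.52%, 15.48% and 12.8%, and tip cell genes (Esm1, Apln, Angpt2, Kcne3 and Cxcr4) in 23.3%, 30.0%, 16.8% and 19.5%. In other barcodes these 3 shares were at most 1.17%. In the P1 maxillary cells with a shared and with their own barcode, arterial cells were 22.2% and 10.3%, venous cells 23.02% and 10.3%, tip cells 28.6% and 8.70%, and lymphatic cells 7.94% and 6.52%. Each share depends on depth, and the own-barcode cells were the shallowest. In cells thinned to 2000 UMIs, with 14, 24, 41 and 5 shallower cells left out, arterial cells were 5.24%, 9.05%, 3.35% and 4.74%, venous cells 3.15%, 2.51%, 4.46% and 3.68%, and tip cells 2.80%, 3.02%, 1.49% and 2.63%. Their intervals overlapped between the libraries at this depth. In the shared and own sets the thinned shares were 4% and 2.78% for arterial, 5.60% and 3.47% for venous and 2.40% and 0.694% for tip cells, again with overlapping intervals. Thinned lymphatic shares were 3.15%, 0.503%, 4.83% and 2.11%, with 1 such cell among 199 in the E15.5 mandibular library. Tip cell genes were found in 20 of 54, 20 of 43, 17 of 47 and 14 of 35 arterial cells, and in 0 of 33, 5 of 19, 8 of 48 and 4 of 25 venous cells.

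**Figure D3:**
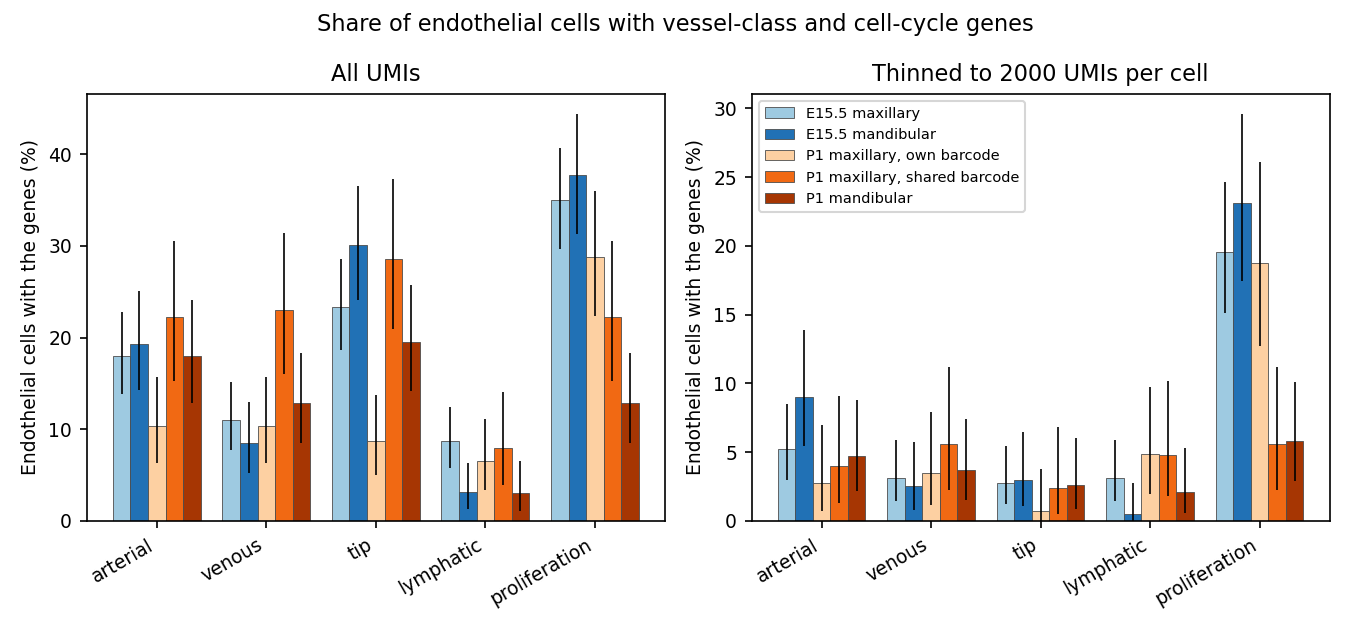
Share of endothelial cells, in percent, with genes of each class, from all UMIs (left) and after thinning to 2000 UMIs per cell (right), with 1 bar per library or set of P1 maxillary cells and exact 95% binomial intervals. The thinned proliferation share is 19.6% and 23.1% at E15.5, 5.79% in the P1 mandibular cells, and 5.60% and 18.8% in the P1 maxillary cells with a shared and with their own barcode.

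The classes differed in genes that had not been used to assign them. Of these, Cxcl12, Dkk2, Icam1 and Kirrel3 were chosen for being among the largest ratios to the remaining endothelial cells in the maxillary libraries. Their higher level there is therefore no result. Arterial cells had more Cxcl12, a chemokine of arteries, with 265, 336, 145 and 647 CPM against 7.91, 18.8, 10.3 and 20.4 CPM in the remaining endothelial cells, in the order E15.5 maxillary, E15.5 mandibular, P1 maxillary and P1 mandibular. Dkk2, a secreted Wnt modulator, was likewise higher in arterial cells, with 219, 104, 76.4 and 38.0 CPM against at most 7.94 CPM. The netrin receptor Unc5b had 263, 295, 105 and 156 CPM in arterial cells and 29.6 to 46.3 CPM elsewhere, while the apelin receptor Aplnr was lower in arterial cells, at 137 to 194 CPM against 337 to 380 CPM. Venous cells had more Emcn, with 1242, 1484, 1306 and 1478 CPM against 718 to 895 CPM, and more Icam1, a leukocyte adhesion molecule, with 200, 150, 485 and 280 CPM against 75.4 to 184 CPM. Kirrel3 was higher in venous cells too, with 245, 297, 111 and 134 CPM against 10.3 to 40.6 CPM. Kirrel3 had 702 and 353 CPM in the other barcodes of the P1 maxillary and mandibular libraries, above its level in the venous cells, and the part of free RNA in its venous level was not tested. Tip cells had more Dll4, the Notch ligand of tip cells, with 87.6, 67.2, 117 and 127 CPM against 51.3, 41.0, 50.4 and 66.0 CPM. These are descriptions within 1 library each, and cells of 1 library are not replicates.

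Lymphatic cells also carried genes beyond those that assigned them. Fgl2, Pdpn and Pard6g were likewise chosen for their ratios to the remaining cells in the maxillary libraries, so that their higher level there is no result. Fgl2, a secreted fibrinogen-like protein, had 249, 82.5, 744 and 1229 CPM in lymphatic cells and 3.48, 1.31, 10.4 and 11.3 CPM in the remaining endothelial cells. Pdpn, podoplanin, which separates lymphatic from blood vessels, had 52.1, 0, 51.7 and 42.4 CPM against at most 1.62 CPM, and the polarity gene Pard6g 119, 5.89, 182 and 438 CPM against at most 3.68 CPM. The 7 lymphatic cells of the E15.5 mandibular library stood apart from the others: Prox1 was high, at 743 CPM, with Reln at 141 CPM and Mmrn1 at 70.7 CPM, but Pdpn and Ccl21a were at 0 and Lyve1 was at 29.5 CPM.

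Fewer endothelial cells carried cell cycle genes at P1, mainly in the mandibular pair. Genes of mitosis (Mki67, Top2a, Ube2c, Cenpf, Ccnb1 and Birc5) were found in 35.0% of E15.5 maxillary cells, 37.7% of E15.5 mandibular cells, 26.1% of P1 maxillary cells and 12.8% of P1 mandibular cells. After thinning to 2000 UMIs the shares were 19.6% (15.1 to 24.7%), 23.1% (17.4 to 29.6%), 12.6% (8.91 to 17.2%) and 5.79% (2.93 to 10.1%). The intervals of the mandibular libraries did not overlap. In the P1 maxillary library the share was 5.60% (2.28 to 11.2%) of cells with a shared barcode and 18.8% (12.7 to 26.1%) of cells with their own, with the first interval overlapping that of the P1 mandibular cells and the second that of the E15.5 maxillary cells. Between 8.19% and 11.4% of the other barcodes had these genes at the same depth.

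Between E15.5 and P1 few genes were 2-fold different in the endothelial cells of both jaws, and most of those that were reached 2-fold on the maxillary side only in cells with a shared barcode. A gene was compared when it had at least 50 CPM in both libraries of the higher stage and was there no lower than in the other barcodes. Of 2720 genes, 15 (0.551%) were at least 2-fold higher at P1 in both jaws with intervals that excluded no change, and 9 (0.331%) were at least 2-fold lower. When libraries were scaled by size factors, 10 were higher and 13 lower. From means of single-cell CPM 3 were higher and 5 lower, among them 1 of the 15 (Ltbp4) and 3 of the 9 (Ccnb2, Cenpf and Ube2c). Slc7a5 (log2 ratios of 1.50 and 1.72), Fgl2 (1.62 and 3.84) and Hist1h2ae (-1.01 and -1.23) lost their calls though still past 2-fold in both jaws. Nr4a1, Zfp36, Ramp3, Ier3, Insr, Slco2a1, Zfp46 and Bag3 fell within 2-fold in the maxillary pair, between 0.45 (Bag3) and 0.98 (Zfp46). The median log2 ratio of all 2720 genes was 0.02 in the maxillary and 0.07 in the mandibular pair. These pairs were far from equal in what they held: 19 genes were higher and 14 lower in the maxillary pair alone, and 52 and 60 in the mandibular pair alone.

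The maxillary side of these changes lay in the 126 cells with a shared barcode. In those cells 15 of the 15 higher genes and 9 of the 9 lower genes were 2-fold different from the E15.5 maxillary cells, with median log2 ratios of 1.60 and -1.42. In the 184 cells with their own barcode, 1 of the 15 and 0 of the 9 were, with medians of -0.08 and -0.62, although all 9 lower genes were lower there too. Both sets were compared with the same E15.5 cells. With the shared barcodes left out, 2 genes, Acer2 and Tll1, were 2-fold higher in both jaws and 1, Hist1h2bc, lower, and none of the 24 genes above was among them.

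Slc7a5, the large neutral amino acid transporter that endothelium also uses to pass amino acids into tissue, was higher at P1 in every set. It had 16.8 CPM in the E15.5 maxillary and 17.4 CPM in the E15.5 mandibular cells, and 52.1 CPM in the P1 maxillary and 51.9 CPM in the P1 mandibular cells. Its log2 ratio was 1.63 (1.22 to 2.06) in the maxillary pair and 1.58 (1.09 to 2.08) in the mandibular pair, 1.70 in cells with a shared barcode and 1.44 (0.87 to 2.004) in cells with their own. It was missing from the count without shared barcodes only because its 45.7 CPM in the own-barcode cells was under the 50 CPM limit. In the other barcodes Slc7a5 changed little, with log2 ratios of -0.20 and 0.16. Insr, the insulin receptor, had 76.0 and 65.3 CPM at E15.5 and, at P1, 177 and 168 CPM, with log2 ratios of 1.22 (1.02 to 1.42) and 1.36 (1.11 to 1.62). It was also higher in cells with their own barcode, at 139 CPM and a log2 ratio of 0.87.

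The remaining genes were 2-fold higher in the mandibular pair and in the shared cells but not in the cells with their own barcode. Nr4a1, a nuclear receptor of the immediate early response, had 38.6, 23.3, 110 and 108 CPM in the E15.5 maxillary, E15.5 mandibular, P1 maxillary and P1 mandibular cells. Within the P1 maxillary library it had 138 CPM in cells with a shared barcode and 40.7 CPM in cells with their own. Zfp36, which encodes an RNA-decay factor that is induced with the immediate early genes, had 36.1, 27.7, 111 and 73.2 CPM in the 4 libraries, with 145 and 26.8 CPM in the P1 maxillary sets. The stress-induced Ier3 had 76.8, 42.6, 181 and 118 CPM, with 233 and 53.6 CPM in the sets, and Bag3, a co-chaperone, 40.7, 31.1, 103 and 67.5 CPM, with 129 and 39.7 CPM. In each case the P1 maxillary cells with their own barcode were within 1.5-fold of the E15.5 maxillary cells or below them.

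The prostaglandin transporter Slco2a1 had 82.8, 55.0, 190 and 205 CPM in the 4 libraries, and 227 and 101 CPM in the shared and own sets. Ramp3, an accessory subunit of the adrenomedullin receptor, had 23.6, 14.3, 57.0 and 59.7 CPM, with 68.5 and 28.8 CPM in the sets. Ltbp4, which binds latent TGF-beta in the matrix, had 33.1, 23.3, 75.7 and 91.9 CPM, with 90.8 and 38.7 CPM in the sets. Slco2a1, Ramp3 and Ltbp4 were therefore between 0.22 and 0.29 log2 higher in own-barcode cells than at E15.5, and between 1.45 and 1.54 log2 higher in shared cells. Zfp46, a zinc finger gene, had 24.1, 19.6, 53.8 and 57.7 CPM, and was under its E15.5 maxillary level in own-barcode cells, at 22.8 CPM.

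Fgl2, the lymphatic gene above, had 36.6, 5.60, 113 and 56.1 CPM, a log2 ratio of 1.62 (1.34 to 1.90) in the maxillary and 3.33 (2.60 to 4.13) in the mandibular pair. It had 150 CPM in cells with a shared barcode and 20.8 CPM in cells with their own. With lymphatic cells left out its log2 ratios were 1.57 and 3.11, but its levels were far under the 50 CPM limit, so that it was no longer compared. Icam1, which holds leukocytes to the vessel wall, had 109, 82.4, 242 and 166 CPM, with 298 and 103 CPM in the sets, and Irf1, an interferon-response factor, 59.7, 30.8, 127 and 98.2 CPM, with 161 and 43.7 CPM. The inducible selectins were under the limit of 50 CPM at P1 in the mandibular cells: Sele had 12.04, 5.91, 93.6 and 47.3 CPM and Selp 10.0, 14.6, 101 and 35.8 CPM. In own-barcode cells Sele and Selp had 18.9 and 16.9 CPM. None of the 15 genes was 2-fold higher in the other barcodes of both jaws. Egr1, Fosb, Hspa1a and Hspa1b are early and heat shock genes of the kind that dissociation of tissue is known to induce. They were 2-fold higher at P1 in both jaws, but they were not compared because the other barcodes of at least 1 jaw held more of them at P1. Without that condition 23 of 3630 genes were higher, and Fos, Jun, Junb and Hspb1 were not among them. With the condition kept, Jun and Junb were among the higher genes when only P1 maxillary cells with a shared barcode were counted. Fos, Jun, Junb and Hspb1 were among them when proliferating cells were left out. No list of such genes was fixed beforehand. Hspa1b had 106, 106, 316 and 264 CPM in the endothelial cells of the 4 libraries and 283, 220, 344 and 364 CPM in the other barcodes. The part of dissociation in the higher levels at P1 was not tested.

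**Figure D4:**
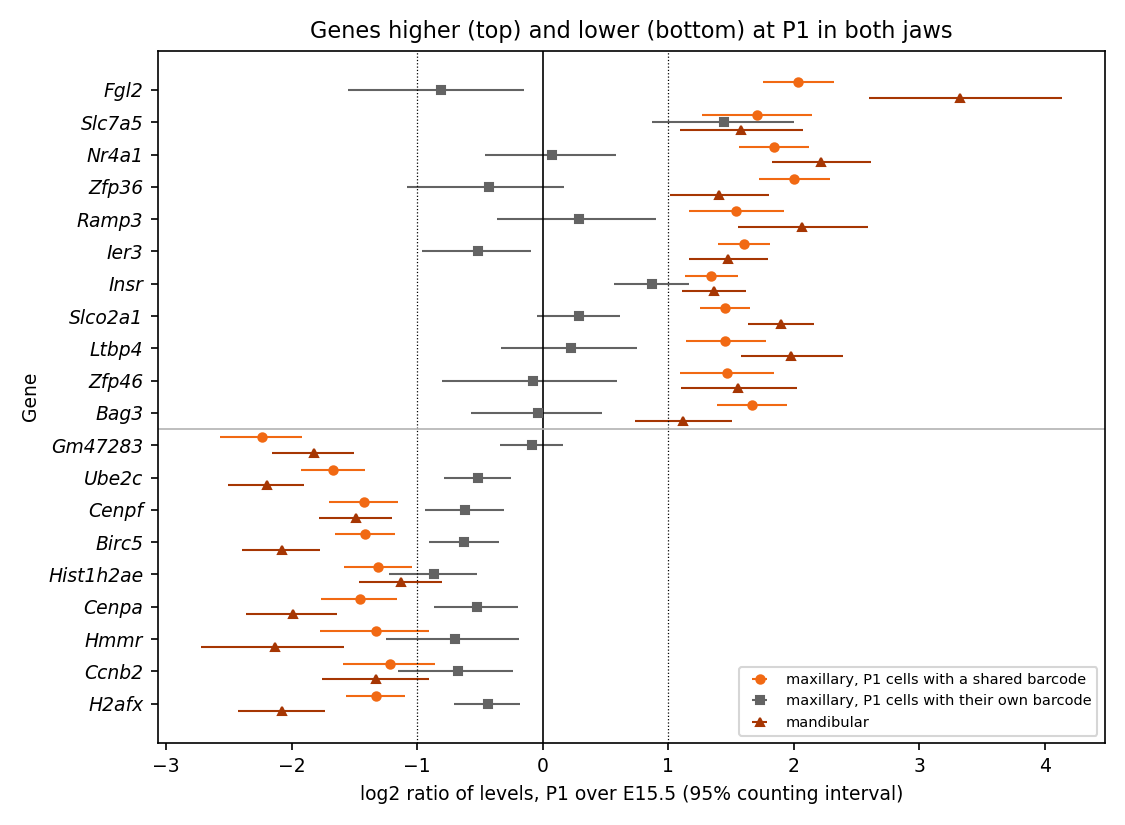
Log2 ratio of levels between P1 and E15.5, with 95% counting intervals, for leading genes higher at P1 and the 9 lower genes, with 1 symbol for the mandibular pair and 1 for each set of P1 maxillary cells against the same E15.5 maxillary cells. Dotted lines mark 2-fold. Slc7a5 is past 2-fold in all 3, while Fgl2 is at 2.03 for cells with a shared barcode and -0.81 for cells with their own.

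The genes lower at P1 were genes of mitosis and histones, with Gm47283 the exception. Ube2c, which directs the destruction of cyclins, had 197, 251, 84.1 and 54.5 CPM in the 4 libraries, with log2 ratios of -1.23 (-1.43 to -1.03) and -2.20 (-2.51 to -1.90). Birc5, survivin of the chromosomal passenger complex, had 196, 220, 89.0 and 51.9 CPM, and the kinetochore gene Cenpf 152, 177, 69.1 and 62.9 CPM. Of the 4 libraries, the P1 mandibular one was lowest for each. Cenpa, the centromeric histone, had 127, 155, 58.4 and 39.0 CPM, the cyclin gene Ccnb2 76.3, 76.8, 37.1 and 30.7 CPM, and the spindle gene Hmmr 58.0, 70.6, 26.8 and 16.1 CPM. The histone genes Hist1h2ae and H2afx had 143, 112, 63.6 and 51.4 CPM and 191, 175, 94.99 and 41.6 CPM. In own-barcode cells Ube2c, Birc5 and Cenpf stood at 138, 127 and 99.3 CPM, between the E15.5 and the shared cells. The predicted gene Gm47283 had 172, 171, 72.8 and 48.3 CPM and was the 1 of the 9 that was also 2-fold lower in the other barcodes of both jaws.

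Genes of the G2 and M phases and of the S phase were counted as lists, and the difference between the phases was not tested. Of 12 G2/M genes tested, 5 were 2-fold lower at P1 in both jaws and 11 were 1.5-fold lower, with median log2 ratios of -0.92 and -1.50, against -0.38 and -0.41 in the other barcodes. Of 5 S phase genes, 0 were 2-fold lower and 1, Tyms, was 1.5-fold lower, with medians of -0.35 and -0.83, against -0.61 and -0.51 in the other barcodes. Over all 2720 genes, 74 (2.72%) were 1.5-fold higher in both jaws and 57 (2.1%) 1.5-fold lower. The G2/M genes summed to 2894, 3231, 1586 and 1083 CPM in the 4 libraries, and to 1338 and 2193 CPM in the shared and own P1 maxillary cells. The S phase genes summed to 965, 952, 784 and 493 CPM, and to 716 and 950 CPM in the shared and own cells. When the cells with mitosis genes were left out, the log2 ratios were still past 2-fold in both jaws for Gm47283 (-1.23 and -1.92), Birc5 (-1.33 and -1.48) and Ccnb2 (-1.30 and -2.00), but none of the 9 genes met all conditions of the comparison, the level included. Ube2c, Cenpf and Birc5 were among the genes that marked those cells.

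At 1.5-fold some genes reached the change in both sets of P1 maxillary cells. These were 12 of the 74 higher genes, among them Acer2, Atp8a1, Cdc14a, Chn2, Fbxl20, Gtdc1, Insr, Klhl6, Slc7a5, St6gal1 and Vwf, and 9 of the 57 lower ones, namely Birc5, Ccnb2, Cdc20, Cenpf, Hist1h2ae, Hist1h2bc, Hmmr, Spc24 and Tcf15. Vwf, von Willebrand factor of venous and larger vessels, had 67.8 and 84.6 CPM at E15.5, 136 and 129 CPM in the shared and own P1 maxillary cells and 144 CPM in the P1 mandibular cells. St6gal1, a sialyltransferase, had 42.7 and 35.4 CPM at E15.5, 69.7 and 69.5 CPM in the P1 maxillary sets and 66.0 CPM in the P1 mandibular cells. The ceramidase gene Acer2 had 33.6 and 20.5 CPM at E15.5, 50.7 and 91.3 CPM in the P1 maxillary sets and 50.9 CPM in the P1 mandibular cells. These 12 genes were chosen after their values were seen, for being higher in both sets, so that their agreement is no result. Of all 74 higher genes, 49 were higher in own-barcode than in E15.5 maxillary cells, with a median log2 ratio of 0.23. Of the 57 lower genes, 54 were lower there, with a median of -0.40.

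Most other lists held no gene that was 2-fold different in both jaws, against 0.551% and 0.331% of all genes compared that were higher and lower, which is too few to tell such lists from the rest. The counts were 0 of 12 genes of tip cells and sprouting, 0 of 8 arterial, 0 of 7 venous, 0 of 11 capillary, 0 of 13 junction, 0 of 9 caveola, 0 of 7 hypoxia and glycolysis and 0 of 11 secreted-factor genes. Single members that did were Fgl2 of 7 lymphatic genes, Slc7a5 of 4 barrier genes, Icam1 of 3 leukocyte adhesion genes, Ramp3 of 12 flow-response genes and Irf1 of 8 MHC and interferon genes. Igfbp7, a secreted protein of vessels, was 1.5-fold higher in both jaws, with 727, 595, 1283 and 1586 CPM, but had 1507 CPM in shared and 733 CPM in own-barcode cells. The flow-response factor Klf2 had 314, 212, 378 and 295 CPM, with 440 and 225 CPM in the sets.

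Between the jaws, 2 of 7 lymphatic genes tested were 2-fold higher in the maxillary endothelial cells at both stages, and 3 of 9 capillary genes were 2-fold lower. Of 2386 genes compared, 2 (0.0838%) were at least 2-fold higher in the maxillary cells at both stages and 6 (0.251%) at least 2-fold lower. At 1.5-fold the counts were 4 (0.168%) and 28 (1.17%). The 2 P1 libraries share barcodes, and the P1 mandibular cells counted here are those without a shared barcode, while the shared cells are counted as maxillary by convention.

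The 2 genes higher in maxillary cells were both lymphatic. Ccl21a, the chemokine with which lymphatic vessels attract dendritic cells, had 192 CPM (767 UMIs) in the E15.5 maxillary cells, 0.311 CPM (1 UMI) in the E15.5 mandibular cells, 346 CPM in the P1 maxillary and 66.5 CPM in the P1 mandibular cells. It was found in few cells, 3.33%, 0.448%, 4.52% and 1.54% of those in the 4 libraries. Its log2 ratio between the jaws was 9.27 (6.79 to 14.6) at E15.5 and 2.38 (2.12 to 2.65) at P1. The E15.5 value rests on 1 mandibular UMI and was 6.48 from means of single-cell CPM. Ccl21a has near-identical copies in the mouse genome, so its counts are uncertain. Mmrn1, a multimerin of lymphatic endothelium, had 101, 17.1, 119 and 47.3 CPM, with log2 ratios of 2.56 (2.15 to 2.99) and 1.34 (1.01 to 1.68). Both were 2-fold above the P1 mandibular cells in the shared and in the own-barcode cells. Lyve1, under the limit, had 32.4, 1.55, 38.6 and 13.0 CPM, while Prox1 had 65.0, 49.4, 78.6 and 66.0 CPM and was close in all libraries. The lymphatic class, which Ccl21a and Mmrn1 help to define, held 26 against 7 cells at E15.5 and 22 against 6 at P1. With that class left out, 0 genes were 2-fold higher in maxillary cells at both stages, and Mmrn1 had log2 ratios of 1.19 and 0.40. How much lymphatic tissue each dissection took was not tested.

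**Figure D5:**
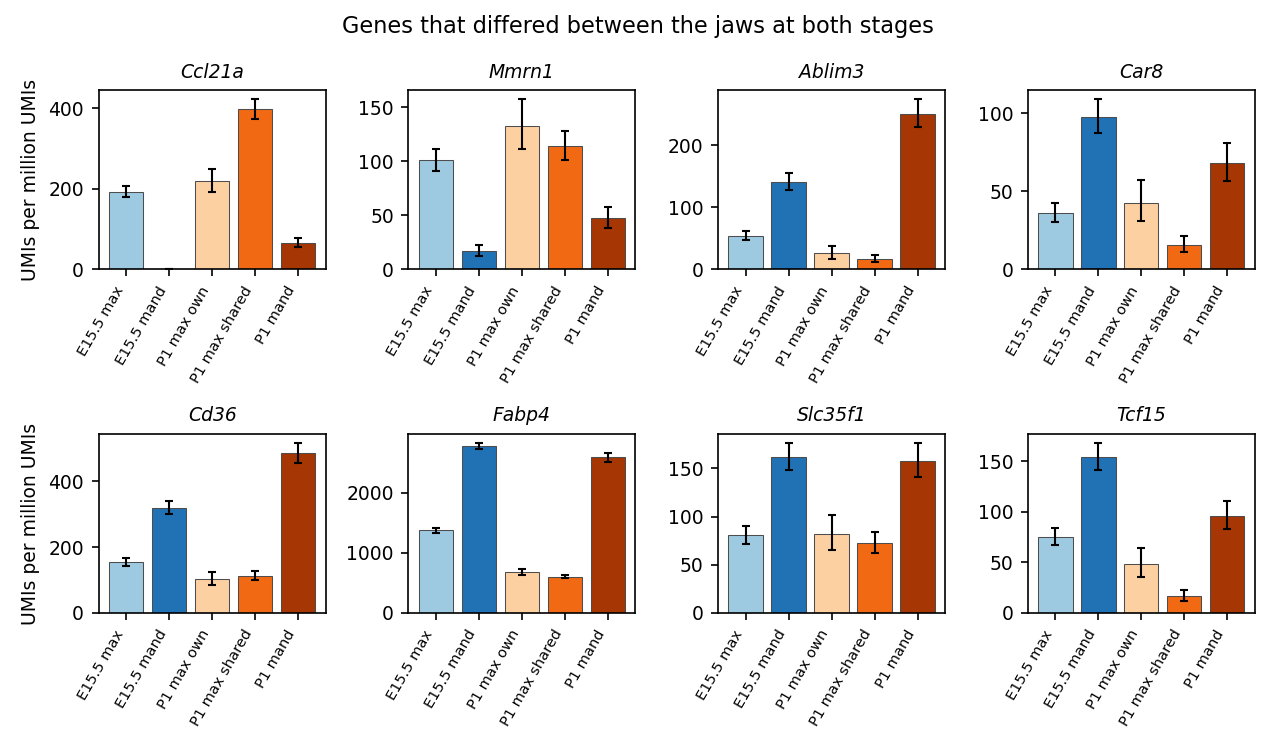
Levels in UMIs per 1000000 UMIs, on linear axes from 0, of the 8 genes that were 2-fold different between the jaws at both stages, with 95% counting intervals and 1 bar per library, except that the P1 maxillary cells with their own and with a shared barcode have a bar each. In maxillary cells Fabp4 is at 1376 CPM at E15.5 and, at P1, 684 and 608 CPM, and in mandibular cells at 2782 and 2593 CPM, and Ccl21a shows the reverse order.

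The genes lower in maxillary cells were Fabp4, Cd36, Tcf15, Ablim3, Car8 and Slc35f1. Fabp4, a fatty acid binding protein of capillaries, had 1376 CPM in E15.5 maxillary and 2782 CPM in E15.5 mandibular cells, and 630 CPM in P1 maxillary and 2593 CPM in P1 mandibular cells. Its log2 ratio between maxillary and mandibular cells was -1.02 (-1.06 to -0.97) at E15.5 and -2.04 (-2.11 to -1.97) at P1. Cd36, a fatty acid translocase, had 155 and 320 CPM at E15.5 and, at P1, 110 and 486 CPM, with log2 ratios of -1.05 and -2.15. Tcf15, which encodes a transcription factor known to act with Meox2 on such genes in heart capillaries, had 75.3 and 154 CPM at E15.5 and, at P1, 25.9 and 96.1 CPM. Meox2 itself was 1.5-fold lower in maxillary cells, with 102 and 164 CPM at E15.5 and, at P1, 60.5 and 102 CPM, with 57.2 and 68.5 CPM in the P1 maxillary sets. The share of cells with at least 1 UMI moved in the same way, with Cd36 in 36.3% and 64.1% of cells at E15.5 and in 22.6% and 52.8% at P1. Cd36 had between 5.57 and 14.2 CPM in the other barcodes.

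Ablim3, which encodes an actin-binding protein, had the widest gap at P1, with 54.2 and 141 CPM at E15.5 and, at P1, 19.9 and 251 CPM, although the P1 maxillary level was under the 21.1 CPM of the other barcodes. Car8, of the carbonic anhydrase family, had 35.9 and 97.6 CPM at E15.5 and, at P1, 23.3 and 68.0 CPM. Slc35f1, which fell outside the rule for named genes and is given to complete the 6, had 80.6 and 162 CPM at E15.5 and, at P1, 75.1 and 158 CPM. Against the P1 mandibular cells, the shared P1 maxillary cells were 2-fold lower for all 6 genes and the own-barcode cells for Ablim3, Cd36 and Fabp4, and all 6 were lower in both sets. Tcf15 had 16.6 CPM in shared and 48.6 CPM in own-barcode cells, Fabp4 608 and 684 CPM, and Cd36 112 and 103 CPM.

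Of 9 capillary genes tested, 3 were 2-fold lower in maxillary cells at both stages. The capillary list summed to 3826 CPM in E15.5 maxillary, 5990 CPM in E15.5 mandibular, 2687 CPM in P1 maxillary and 5892 CPM in P1 mandibular cells, and to 2809 and 2387 CPM in the shared and own P1 maxillary cells. Most of the gap between the jaws in this sum was Fabp4 alone, at 1376 and 2782 CPM at E15.5 and, at P1, 630 and 2593 CPM. The lipase anchor Gpihbp1 differed less between the jaws, with 457, 515, 565 and 745 CPM. The water channel Aqp1 had 168, 194, 101 and 329 CPM, and the aquaglyceroporin Aqp7 7.78, 18.7, 3.17 and 34.8 CPM.

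Markers of pericytes and of erythroid cells were higher in the mandibular cells at both stages. Those of glia, neurons, muscle and cartilage were close between the jaws at E15.5 and higher in the mandibular cells at P1. Those of epithelial and immune cells kept no one direction, and those of odontoblasts and mesenchymal cells depended at P1 on the set of cells. Pericyte markers summed to 63.0, 146, 133 and 443 CPM in the endothelial cells of the 4 libraries, and to 126 and 151 CPM in the shared and own P1 maxillary cells, with Acta2 highest in the P1 mandibular cells, at 118 CPM, and Rgs5 at 13.6, 36.1, 50.4 and 112 CPM. Erythroid markers summed to 12349, 28587, 2076 and 11086 CPM, and to 843 and 5095 CPM in the shared and own P1 maxillary cells. Odontoblast markers summed to 110, 169, 84.9 and 102 CPM, and to 75.0 and 109 CPM in the sets. In the other barcodes they summed to 33.7, 53.9, 233 and 502 CPM. At E15.5 this list was thus higher in the endothelial cells than around them, so that its sum does not measure RNA from odontoblasts. Markers of glia, neurons, muscle and cartilage summed to 97.9, 104, 92.4 and 284 CPM, and to 74.6 and 136 CPM in the sets. Epithelial markers summed to 18.6, 3.11, 37.1 and 250 CPM, of which Amelx had 142 CPM in the P1 mandibular cells. Immune markers summed to 90.1, 19.6, 47.8 and 100 CPM. Mesenchymal markers summed to 175, 145, 191 and 197 CPM, and to 157 and 273 CPM in the shared and own P1 maxillary cells. With cells that passed a pericyte, immune or epithelial gate or had over 5% globin left out, Ccl21a and Mmrn1 remained 2-fold higher in maxillary cells, and 4 of the 6 lower genes remained, Fabp4 and Slc35f1 being the exceptions (Fabp4 had log2 ratios of -0.87 and -1.94). Slc35f1 lost its call under several other alternatives too. From means of single-cell CPM, Fabp4 and Tcf15 lay just within 2-fold at E15.5, with log2 ratios of -0.9996 and -0.99, and without lymphatic cells Tcf15 had -0.93. With proliferating cells left out, the E15.5 ratios were further within 2-fold, at -0.57 for Fabp4 and -0.84 for Tcf15. The part of the remaining free RNA was not tested.

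Few cells lay near the limit on the marker genes, while the collagen limit set aside more barcodes. With exactly 3 UMIs of the 3 marker genes there were 8, 9, 15 and 5 endothelial cells in the 4 libraries, in which the 25 other endothelial genes summed to 6901, 2695, 8057 and 2217 CPM. Just outside, with 2 UMIs, there were 11, 3, 12 and 7 barcodes with 5117, 2070, 2858 and 1999 CPM. The collagen limit set aside 72, 46, 40 and 64 barcodes that otherwise passed. Their medians were 15552, 24891.5, 17154.5 and 19928 UMIs, and the 25 endothelial genes summed to 3616, 4578, 5002 and 4627 CPM in them. The Epcam condition set aside 7, 4, 17 and 21 barcodes, and the Ptprc condition 4, 3, 2 and 7.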

How the data were processed

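The authors deposited whole-number UMI counts per gene and cell barcode, 1 matrix for each of 4 libraries (3′ single-cell RNA-seq). The authors made these counts with Cell Ranger (7.0.1 in the file headers) from reads aligned to mm10 with the annotation supplied by 10x Genomics, and the deposited barcodes precede their doublet and quality filters. The libraries held 109723360, 86659227, 128812956 and 139873101 UMIs (E15.5 maxillary, E15.5 mandibular, P1 maxillary, P1 mandibular).

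Here 32285 genes were read, and genes that share a symbol (40 repeats) were summed. Doublets were not called. The conditions on Ptprc, Epcam and collagens act on mixed barcodes, and gates for other cell types were tried as an alternative. UMIs of endothelial cells were summed per library and scaled to 1000000. Intervals are exact (Poisson for levels, conditional binomial for ratios, Clopper-Pearson for shares). With 1 library per group no test was run. Genes below 50 CPM in the higher group, or there below the other barcodes, were not compared. Thinning drew 2000 UMIs per cell without replacement. The ratios were checked on simulated data. Analyses used Python 3.11.15, numpy 2.4.6, scipy 1.17.1, pandas 2.3.3 and matplotlib 3.10.9.

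The text names the 15 genes furthest above other barcodes (by the smallest of 4 ratios), up to 12 genes per direction between stages and 5 between jaws (by the smaller ratio), the 5 leading genes of each class or fewer, and members of 33 gene lists. The cells and lists were chosen with earlier results of these data known. A few genes that these rules name are not reported here.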

Additional observations from a re-analysis of the deposited data

Results flagged for a closer look

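Some endothelial genes had log2 ratios of P1 to E15.5 of opposite sign in the 2 jaws, with counting intervals that excluded no change in both. Each difference rests on 1 library per group and was not tested. The log2 ratio of P1 to E15.5 of Ablim3 was -1.45 in the maxillary and 0.83 in the mandibular pair, that of Aqp1 was -0.74 and 0.76, and that of Cd36 was -0.50 and 0.60. Cldn5, the main claudin of endothelium, had -0.10 and 0.55, Mecom, a transcription factor of arteries, -0.26 and 0.10, and Cavin1, a coat protein of caveolae, -0.24 and 0.18. In the P1 maxillary cells with a shared and with their own barcode the ratio of Mecom was -0.61 and 0.35, that of Cldn5 0.02 and -0.48, that of Ablim3 -1.64 and -1.07, that of Aqp1 -0.55 and -1.36, that of Cd36 -0.46 and -0.58 and that of Cavin1 -0.19 and -0.37. The maxillary fall of Cldn5 thus came from the own-barcode cells, and that of Mecom from the shared ones.

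Among the P1 mandibular copies of shared barcodes, which were left out of the P1 mandibular counts, 119 would have passed the rule for endothelial cells, and 102 of these were endothelial cells in the P1 maxillary library.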

How the results depend on the processing

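No test was run, since each stage and jaw is 1 library and the P1 libraries share cells. No paired analysis was possible because the labels number no replicates and no result comes from a test. Of 130 values that answer a comparison, recomputed under the alternatives, 96 stayed within 1.5 times or the counting interval and 34 did not. Of 643 values for single genes, 551 stayed, 82 moved and 10 changed sign.

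Genes 2-fold higher and lower at P1 numbered 15 and 9. They numbered 2 and 1 without shared barcodes and 26 and 30 with only those P1 maxillary cells, 3 and 5 from means of single cells, 41 and 32 from 20 CPM, 93 and 55 with no limit on level, and 74 and 57 at 1.5-fold. Without the free RNA condition 23 were higher. With size factors they numbered 10 and 13, and all genes shifted by -0.12 log2 in the mandibular pair. Leaving out mixed barcodes gave 14 lower, and leaving out proliferating cells gave 3.

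Genes higher in maxillary cells numbered 5 from 20 CPM, 12 with no limit, 4 at 1.5-fold and 0 without lymphatic cells. Lower ones numbered 36 with no limit and 28 at 1.5-fold. With no limit, 295 genes were 8-fold above other barcodes.

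The proliferation share of all cells, 15.6% when thinned to 2000 UMIs, was 7.39% at 1000 UMIs and 28.7% unthinned. By library these were 9.67% and 35.0% (E15.5 maxillary), 9.87% and 37.7% (E15.5 mandibular), 6.45% and 26.1% (P1 maxillary) and 2.56% and 12.8% (P1 mandibular). In P1 maxillary it was 18.8% without and 5.60% with only the shared barcodes.

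Without shared barcodes the maxillary log2 ratio changed sign for Fgl2 (-0.81), Zfp36 (-0.43), Ier3 (-0.52), Zfp46 (-0.078) and Bag3 (-0.034). Without proliferating cells it did for Ube2c (0.70), Cenpf (0.32, and 0.84 in the mandibular pair), Hist1h2ae (0.061) and, in the mandibular pair, H2afx (0.19). Ube2c and Cenpf were among the genes that marked the proliferating cells, so that leaving those cells out acts on their ratios directly. The cause of each change of sign was not tested. The settings for 1.5-fold, lymphatic cells, proliferating cells and shared barcodes alone were chosen after seeing the data.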
